A study of Homo sapiens with 30 samples.

Results

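The genes described here are MYC, the 4 genes MXD1, MXD4, MXI1 and MNT that encode its antagonists, and 5 genes for abundant nucleolar proteins that are widely used as MYC targets, NCL, NPM1, FBL, NOP56 and NOP58. They were chosen by symbol and are 10 of the 61471 rows in each of 2 expression tables, 1 for the human glioblastoma cell line U87 and 1 for U251. All 10 passed the filter on low values in both lines and were tested among 22918 genes in U87 and 23667 in U251. The study asked how long exposure to interferon-γ (IFN-γ), a cytokine of activated T and NK cells, and its later withdrawal change the 2 lines.

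Each line had 5 groups. Untreated cells received no IFN-γ, the D3, D14 and D28 cells were kept in it for 3, 14 and 28 days, and the D28WO cells had 14 days of it followed by 14 days without it. The labels describe both lines as wild type and give 1 µg/mL of IFN-γ in the treatment protocol, whereas the study's methods state a lower dose. The labels date the Untreated collection to day 3 and the methods to day 0. U87 is described in the study as mesenchymal-like and U251 as proneural-like. Both were bought from a repository and were not authenticated again after receipt, and both are on a register of lines that are often misidentified. Of the 30 labelled samples 28 were used, 3 in every group except U87 D3 and U87 D14, which had 2 each (replicates 2 and 3), because 2 columns of the U87 table share 1 name. The study describes replicates as separate culture preparations. Values are read as TPM, as they are named, although a supplementary sheet calls them CPM. TPM is the share of a library's transcripts that belong to a gene after division by its length, scaled to the same total in every library. The values show neither the RNA content of a cell nor whether a change lay in every cell or in the share of cells that used a gene.

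MYC is a transcription factor that binds DNA as a dimer with MAX, most strongly at the E-box CACGTG, and it is known for raising genes of growth, nucleotide synthesis and ribosome production. MXD1, MXD4, MXI1 and MNT also pair with MAX, occupy the same sites and recruit repressor complexes, so the balance of MYC and these proteins sets which dimers MAX forms. In the nucleolus, the site of ribosome assembly, nucleolin (NCL) and nucleophosmin (NPM1) chaperone ribosomal RNA and proteins, while fibrillarin (FBL), NOP56 and NOP58 are core proteins of the box C/D particles that methylate ribosomal RNA.

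The promoters of 4 members are shown, because FBL and NOP56 serve the same box C/D particle and MXD1 and MXD4 the same repressor role, yet the members of each pair were called in opposite directions at D3 in U251, where the FBL call was lost under 8 of 14 alternatives. Each sequence holds the 250 bases before the gene and its first 50 bases in RefSeq (GRCh38.p14), and capitals mark CACGTG, which reads alike on both strands. FBL lies at chr19:39846330-39846629 on the minus strand and NOP56 at chr20:2652382-2652681 on the plus strand. MXD4 lies at chr4:2262060-2262359 on the minus strand and MXD1 at chr2:69914859-69915158 on the plus strand. The RefSeq start used here is that of the GENCODE gene for FBL and MXD4, lies slightly downstream of it for NOP56, and lies well inside the GENCODE gene for MXD1, so the MXD1 window does not cover the GENCODE start.
FBL: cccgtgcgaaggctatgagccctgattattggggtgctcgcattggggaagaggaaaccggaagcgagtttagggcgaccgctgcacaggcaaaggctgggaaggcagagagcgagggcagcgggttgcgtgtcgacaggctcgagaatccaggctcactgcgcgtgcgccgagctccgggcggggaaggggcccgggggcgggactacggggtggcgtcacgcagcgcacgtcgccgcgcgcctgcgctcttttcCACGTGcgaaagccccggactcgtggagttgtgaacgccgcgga
NOP56: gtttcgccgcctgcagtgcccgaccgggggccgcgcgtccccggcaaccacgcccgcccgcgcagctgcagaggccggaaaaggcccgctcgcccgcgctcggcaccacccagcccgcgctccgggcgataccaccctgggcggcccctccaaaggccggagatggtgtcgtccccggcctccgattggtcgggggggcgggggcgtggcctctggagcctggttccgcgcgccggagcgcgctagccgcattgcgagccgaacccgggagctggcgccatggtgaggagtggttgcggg
MXD4: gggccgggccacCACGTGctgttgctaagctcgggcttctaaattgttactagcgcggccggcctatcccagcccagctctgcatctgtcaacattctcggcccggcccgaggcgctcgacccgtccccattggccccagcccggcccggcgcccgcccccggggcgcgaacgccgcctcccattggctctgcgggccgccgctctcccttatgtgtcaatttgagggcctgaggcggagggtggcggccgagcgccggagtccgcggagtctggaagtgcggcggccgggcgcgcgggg
MXD1: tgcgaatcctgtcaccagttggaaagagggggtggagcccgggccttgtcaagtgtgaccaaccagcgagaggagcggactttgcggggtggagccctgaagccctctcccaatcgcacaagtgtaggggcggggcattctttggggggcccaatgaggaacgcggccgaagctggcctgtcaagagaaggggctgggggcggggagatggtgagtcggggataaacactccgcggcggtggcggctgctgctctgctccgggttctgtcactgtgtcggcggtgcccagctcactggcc

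The FBL promoter held CACGTG 6 bases after the first base of the gene and the MXD4 promoter held it 238 bases before, whereas those of NOP56 and MXD1 held none. The MNT promoter held 1 as well, 193 bases before the start. RefSeq promoters were matched for 8 of the 10 members, all but MYC and NOP58, and 3 of the 8 (37.5%) held the motif, against 2548 of all 35116 promoters of this length (7.26%). It was in 12 of 24 matched promoters of ribosome assembly genes (50%) and in 10 of 17 of other MYC-responsive genes (58.8%). Shares were lower in the remaining lists matched, with 2 of 8 for genes of MYC stability and its coactivators (25%), 2 of 11 for box C/D and H/ACA genes (18.2%), 1 of 8 for further network genes (12.5%) and 1 of 14 for RNA polymerase I genes (7.14%). These are matches of letters in a window, and no binding was measured here.

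Within groups, log2(TPM + 1) correlated between libraries with r from 0.959 to 0.974. The tables hold no read counts, so depth is unknown. Genes above 0 numbered 24223 to 25459 in Untreated U87 libraries and 26096 to 28649 in the other U87 libraries, and 24450 to 30246 in U251. The most abundant genes, the same number in each library, together held 6.80 to 7.76% of TPM in Untreated U87 and 5.96 to 6.91% in the other U87 libraries. In U251 they held 6.60 to 7.05% and 5.68 to 6.66%. The part of this shift in the falls of abundant members was not tested. Of the astroglial and glioma markers, VIM lay between 599 and 1459 TPM and CD44 between 394 and 864 TPM over both lines. GFAP was 222 to 1309 TPM in U251 and 2.33 to 19.1 TPM in U87, and SOX2 was 105 to 176 TPM in U251 but at most 0.41 TPM in U87, so SOX2 was near absent there. S100B was 31.7 to 199 TPM in U251 and 0.387 to 3.39 TPM in U87. NES was 59.6 to 170 TPM in U251 and 19.7 to 46.5 TPM in U87. The leukocyte markers PTPRC, CD3E and LYZ did not exceed 1.47 TPM. The endothelial marker CDH5 did not exceed 1.70 TPM in U87. In U251 its mean was 27.6 TPM in Untreated cells, 11.5 at D14 and 0.565 to 2.25 in the remaining groups. PECAM1, also endothelial, reached 2.38 TPM. Of the epithelial markers, EPCAM reached 9.29 TPM in U87 and 1.93 TPM in U251, and KRT5 reached 1.46 TPM. Why CDH5 differed was not tested. The median log2 fold change of all genes tested against Untreated was not at 0: it was 0.15 to 0.25 in U87 and 0.02 to 0.16 in U251. Quantile normalization or median-ratio size factors brought it to between -0.01 and 0.06, so a member with a fold change near the median did not move relative to other genes. The share of called genes that were higher than Untreated fell with it, from 68.2 to 80.2% as deposited to 46.5 to 57.6% after either scaling in U87, and from 51.5 to 65.4% to 47.4 to 51.8% in U251. For D28WO against D28 it went from 54.0% to 47.8 and 48.6% in U87 and from 35.5% to 50.9 and 48.2% in U251.

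The 10 genes spanned a wide range of levels. They are compared here per length only if the values are TPM, as named, and not CPM. In Untreated U87 cells NPM1 was highest at 575 ± 55.8 TPM (SD, n = 3), followed by FBL at 384 ± 46.1, NCL at 301 ± 32.7, NOP56 at 165 ± 36.1 and NOP58 at 141 ± 21.2. MYC stood below them at 108 ± 7.34 and above all of its antagonists, of which MXI1 was the highest at 88.8 ± 2.15 and MXD1 the lowest at 9.30 ± 2.63. In this order the libraries of neighbours were separate except for NOP56 and NOP58 and for MXD4 and MNT. In Untreated U251 cells the order was the same except that MYC (141 ± 8.15 TPM) stood above NOP58 (105 ± 1.99) and MNT above MXD4, the latter pair overlapping. By D28WO, MXI1 stood above MYC in both lines, at 112 ± 5.12 against 99.1 ± 6.97 TPM in U87 and 141 ± 11.9 against 101 ± 3.61 in U251, and no library of one gene reached those of the other.

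In U87 the calls against Untreated were mostly falls of nucleolar genes, joined by a rise of MXI1 at D28 and by changes of more antagonists after withdrawal. A gene was called when the adjusted p from limma was below 0.05 over all genes tested. At D3, 3 of the 10 members were lower (NCL, NPM1 and FBL) and 0 higher, where 4.28% of all genes were lower and 12.4% higher. At D14, 0 members were called by limma in either direction, with 3 at an unadjusted p below 0.05, where 1.02% of all genes were lower and 4.14% higher. At D28 the same 3 nucleolar genes were lower and MXI1 was higher, against 6.55% of all genes lower and 17.2% higher. At D28WO 5 members were lower (MXD4, NCL, NPM1, FBL and NOP56) and 2 higher (MXD1 and MXI1), against 13.4% and 28.6% of all genes. Compared directly with D28, D28WO had 2 members lower (MYC and MXD4) and 1 higher (MXD1), where 8.44% of all genes were lower and 9.90% higher. The D3 count fell to 1 without replicate 2 or replicate 3 of D3, and the D14 count rose to 2 lower without Untreated replicate 2. When only the 2 compared groups were fitted, the D3 count was 0 and the D28 count 1. With quantile normalization the members higher and lower were 0 and 1 at D3, 0 and 1 at D28, and 2 and 4 at D28WO, and with median-ratio size factors 0 and 3, 0 and 3, and 1 and 6.

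In U251 MYC was lower than in Untreated cells in every exposed group, and the antagonists and the box C/D genes were called in both directions. At D3, 4 members were higher (MXD1, MXI1, NOP56 and NOP58) and 3 lower (MYC, MXD4 and FBL), where 24.9% of all genes were higher and 16.0% lower. At D14, NOP56 and NOP58 were higher and MYC and MXI1 lower, 2 members each way, against 13.8% and 7.31% of all genes. At D28, 2 members were higher (MXD1 and NOP58) and 3 lower (MYC, MXD4 and FBL), against 25.9% higher and 14.7% lower. At D28WO, 2 members were higher (MXI1 and NOP58) and 3 lower (MYC, MXD4 and NPM1), against 14.3% and 13.4% of all genes. Between D28WO and D28, MXI1 was higher and MXD1 lower, 1 member each way, where 10.3% of all genes were higher and 18.8% lower. The D14 count fell to 2 without D14 replicate 3. With quantile normalization the members higher and lower were 5 and 2 at D3, 3 and 1 at D14, 4 and 2 at D28, and 1 and 2 for D28WO against D28, and with median-ratio size factors they were 2 and 5 at D28, 2 and 2 at D28WO, and 2 and 1 for D28WO against D28. With a further limit of an absolute log2 fold change over 1, MXD1 alone stayed, at D3 in U251 and in both D28WO comparisons of U87. This limit is not among the alternatives counted for single genes.

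**Figure D1:**
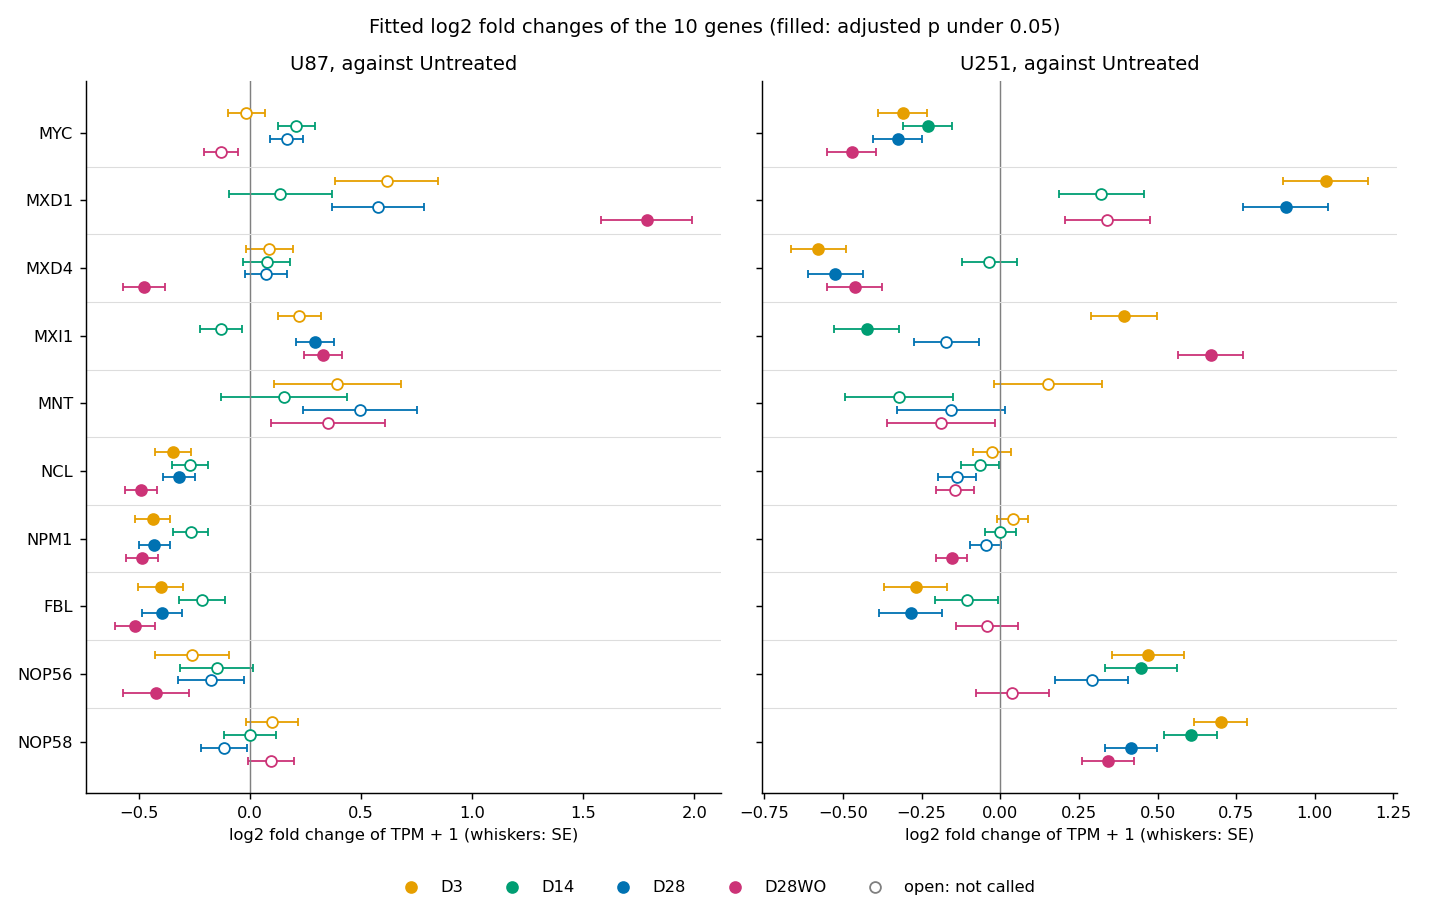
Fitted log2 fold changes of TPM + 1 against Untreated (horizontal axis, whiskers 1 SE) of the 10 genes in U87 (left) and U251 (right), coloured by group, filled where limma's adjusted p was below 0.05. MXD1 at D28WO in U87 lies farthest right at 1.78, NCL, NPM1 and FBL lie left of 0 at all 4 times in U87, and NOP58 lies right of 0 at all 4 times in U251. Horizontal scales differ between the panels.

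MYC (chr8:127735434-127742951, plus strand, GENCODE release 44 on GRCh38) was, as deposited, not called against Untreated at any time in U87 and lower at all 4 times in U251, and the lines, normalized separately, were not tested against each other. In U87, Untreated libraries held 105, 117 and 103 TPM, D3 libraries 111 and 103, and D14 libraries 123 and 127. The D28 libraries held 125, 115 and 125 TPM and the D28WO libraries 91.1, 104 and 102. Both D14 libraries thus lay above all Untreated ones, D3 and D28WO overlapped Untreated, and all D28WO libraries lay below all D28 ones. Against Untreated no difference was called: limma gave log2 fold changes of -0.02 ± 0.08 (SE; adjusted p = 0.92) at D3, 0.21 ± 0.08 (adjusted p = 0.164) at D14, 0.17 ± 0.07 (adjusted p = 0.131) at D28 and -0.13 ± 0.07 (adjusted p = 0.187) at D28WO. The D28WO value depended on the scaling: relative to the median of all genes it was -0.38, and with median-ratio size factors it was -0.37 and called (limma adjusted p = 0.00556), whereas quantile normalization gave -0.14 (adjusted p = 0.166). With median-ratio size factors the D28 value was -0.03, and the D3 value was 0.04 without Untreated replicate 2 or without D3 replicate 3. MYC was lower at D28WO than at D28 (log2 -0.30 ± 0.07, limma adjusted p = 0.0175), a call that was lost without D28 replicate 1 (-0.28, adjusted p = 0.053), D28 replicate 3 (-0.28, adjusted p = 0.0512) or D28WO replicate 1 (-0.24, adjusted p = 0.083).

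In U251 MYC was highest in Untreated libraries, at 133, 149 and 141 TPM. It was 112, 125 and 104 TPM at D3, 131, 121 and 108 at D14, 112, 115 and 109 at D28, and 102, 97.1 and 104 at D28WO. All 12 libraries of the 4 exposed groups lay below all Untreated ones, while the D3, D14 and D28 libraries overlapped each other. MYC fell to 0.81 of its Untreated level at D3 (log2 -0.31 ± 0.08, limma adjusted p = 0.00566), 0.80 at D28 (-0.33 ± 0.08, adjusted p = 0.00418) and 0.72 at D28WO (-0.47 ± 0.08, adjusted p = 0.000417), and these calls held under all 14 alternatives run for each. The D14 difference was at the edge of the threshold (-0.23 ± 0.08, adjusted p = 0.0498) and was lost under 7 of 14 alternatives, among them leaving out Untreated replicate 2 (-0.19, adjusted p = 0.169), Untreated replicate 3 (-0.23, adjusted p = 0.109), D14 replicate 2 (-0.24, adjusted p = 0.0933) or D14 replicate 3 (-0.16, adjusted p = 0.201). D28WO did not pass the test against D28 (-0.15 ± 0.08, adjusted p = 0.185), although its libraries all lay below those of D28. The differences were larger when read against the median gene: relative to it, the log2 fold change of MYC was -0.44 at D3 and -0.49 at D28 and D28WO.

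The levels of a pair of proliferation markers are given beside those of MYC, with no test. In U87, MKI67, a marker of cycling cells, was 74.7 ± 4.1 TPM in Untreated cells, 88.7 ± 1.7 at D14 and 64.4 ± 12.8 at D28WO, and TOP2A, a topoisomerase of S and G2 phase, was 141 ± 23.9, 125 ± 10.6 and 91.6 ± 12.96. In U251, MKI67 was 54.0 ± 1.3 TPM in Untreated cells, 94.2 ± 15.5 at D14 and 39.95 ± 0.849 at D28WO, and TOP2A was 107 ± 10.9, 151 ± 19.3 and 76.2 ± 2.8. The means of both markers and of MYC were lowest at D28WO in each line, the U87 MKI67 libraries overlapping with Untreated, and at D14 in U251 both markers had their highest means. Their part in the differences of MYC was not tested.

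**Figure D2:**
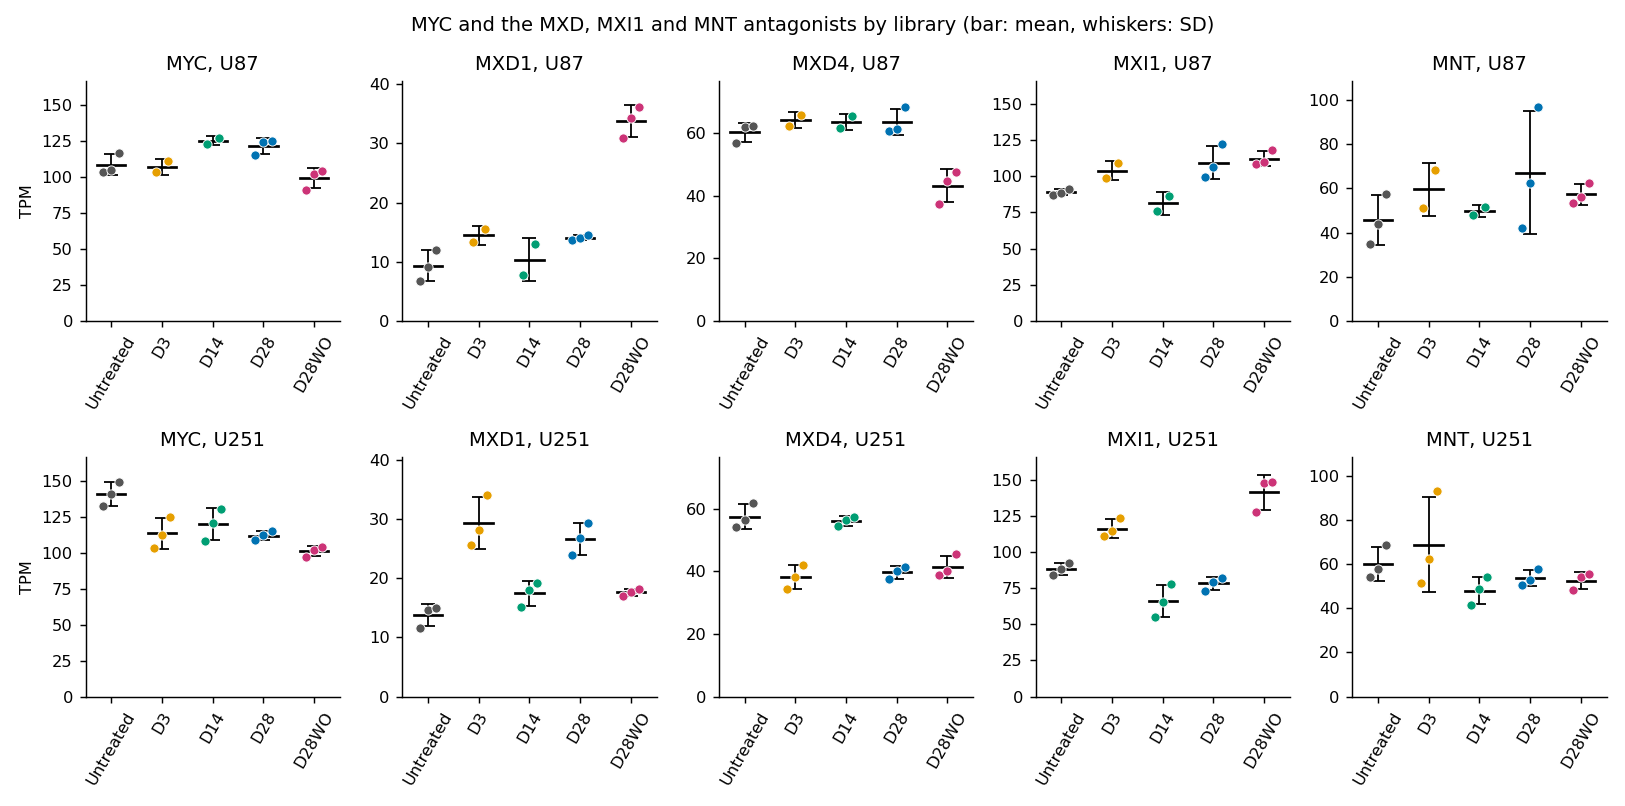
TPM (vertical axes, from 0) of MYC, MXD1, MXD4, MXI1 and MNT in each library (points) of the 5 groups, U87 above and U251 below, with the mean (bar) and SD (whiskers). MXD1 in U87 D28WO lies between 30.9 and 36.2 TPM, above every other U87 library, and MYC in Untreated U251 lies at 133 to 149 TPM, above all other U251 libraries. The lines come from separately normalized tables.

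MXD1 (chr2:69897688-69942945, plus strand), the MAX partner best known from cells that leave the cycle and differentiate, showed the largest changes of the set. In U87 it stood at 11.99, 9.17 and 6.73 TPM in Untreated libraries, 13.3 and 15.6 at D3, 7.80 and 12.9 at D14, and 14.5, 13.6 and 14.0 at D28. After withdrawal it reached 34.2, 36.2 and 30.9 TPM. The D28WO libraries were all higher than every other library of the line, and the D3 and D28 libraries lay above all Untreated ones with limma adjusted p of 0.0888 and 0.063. At D28WO the log2 fold change was 1.78 ± 0.21 against Untreated (3.44-fold, limma adjusted p = 4.46e-05) and 1.21 ± 0.21 against D28 (2.31-fold, adjusted p = 0.00225), and both held under all 14 alternatives.

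In U251 MXD1 rose during exposure and was lower again after withdrawal. It was 14.6, 15.1 and 11.6 TPM in Untreated libraries, 34.1, 28.2 and 25.6 at D3, and 18.0, 19.2 and 15.1 at D14. It was 29.3, 26.7 and 23.9 TPM at D28 and 18.1, 17.1 and 17.7 at D28WO. Every exposed library exceeded every Untreated one, with D3 and D28 well above D14 and D28WO. The rise was called at D3 (log2 1.04 ± 0.14, 2.05-fold, limma adjusted p = 3.46e-05) and D28 (0.91 ± 0.14, 1.88-fold, adjusted p = 0.00011), but not at D14 (0.32 ± 0.14, adjusted p = 0.112) or D28WO (0.34 ± 0.14, adjusted p = 0.0794). The fall from D3 to D14 (-0.71 ± 0.14, adjusted p = 0.00158), the rise from D14 to D28 (0.59 ± 0.14, adjusted p = 0.00698) and the lower level at D28WO than at D28 (-0.57 ± 0.14, adjusted p = 0.00625) passed limma's test and held under all alternatives.

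MXD4 (chr4:2247432-2262109, minus strand), a second repressing partner of MAX, was lower than Untreated at D28WO in both lines and at D3 and D28 in U251. In U87 it was 61.9, 62.1 and 56.7 TPM in Untreated libraries, between 60.7 and 68.3 in the 7 libraries of D3, D14 and D28, and 37.4, 47.6 and 44.5 at D28WO. The D28WO libraries lay below all others, with a log2 fold change of -0.48 ± 0.09 against Untreated (limma adjusted p = 0.00181) and -0.55 ± 0.09 against D28 (adjusted p = 0.00239). In U251 it was 61.9, 54.2 and 56.3 TPM in Untreated libraries and already 34.4, 42.0 and 38.2 at D3. It was back at 54.3, 56.2 and 57.3 TPM at D14, then 40.2, 37.4 and 41.2 at D28 and 45.5, 40.1 and 38.7 at D28WO. The D3, D28 and D28WO libraries of U251 did not overlap with Untreated, whereas the D14 libraries lay within its range. Against Untreated, limma gave -0.58 ± 0.09 at D3 (adjusted p = 0.00012), -0.04 ± 0.09 at D14 (adjusted p = 0.825), -0.52 ± 0.09 at D28 (adjusted p = 0.000283) and -0.46 ± 0.09 at D28WO (adjusted p = 0.00119). All the calls of MXD4 held under all alternatives, including the steps from D3 to D14 (0.54 ± 0.09, adjusted p = 0.000461) and from D14 to D28 (-0.49 ± 0.09, adjusted p = 0.00119) in U251.

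MXI1 (chr10:110207605-110287365, plus strand), the third of these repressing partners, ended above Untreated after withdrawal in both lines. In U251 it was 84.0, 88.5 and 92.2 TPM in Untreated libraries, 123, 115 and 111 at D3, and 77.8, 65.1 and 55.3 at D14. It was 82.2, 79.5 and 72.9 TPM at D28 and 148, 127 and 148 at D28WO. Its libraries thus lay above Untreated at D3 and D28WO and below it at D14 and D28. Against Untreated limma called a rise at D3 (log2 0.39 ± 0.10, adjusted p = 0.00764) and D28WO (0.67 ± 0.10, 1.59-fold, adjusted p = 0.000249) and a fall at D14 (-0.42 ± 0.10, adjusted p = 0.0101), while D28 was not called (-0.17 ± 0.10, adjusted p = 0.207) except with median-ratio size factors (-0.29, adjusted p = 0.0355). D28WO was above D28 (0.84 ± 0.10, 1.79-fold, limma adjusted p = 4.53e-05) and D14 below D3 (-0.82 ± 0.10, adjusted p = 6.83e-05), and all of these calls held under all alternatives.

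In U87 MXI1 was 91.1, 88.5 and 86.9 TPM in Untreated libraries, 109 and 99.1 at D3, and 75.8 and 86.7 at D14. It was 122, 99.7 and 106 TPM at D28 and 118, 109.9 and 108 at D28WO, so that D3, D28 and D28WO lay above and D14 below all Untreated libraries. Rises were called at D28 (0.29 ± 0.09, limma adjusted p = 0.0286) and D28WO (0.33 ± 0.09, adjusted p = 0.0086), close to the shift of all genes, since relative to the median gene they came to 0.10 and 0.08. With median-ratio size factors they were 0.10 (adjusted p = 0.491) and 0.10 (adjusted p = 0.47) and not called. The D28 call was also lost without any 1 of the 3 Untreated libraries (adjusted p = 0.0508 without replicate 1, 0.0605 without replicate 2 and 0.083 without replicate 3, by limma) and without D28 replicate 1 (0.21, adjusted p = 0.0992). The step up from D14 to D28 (0.42 ± 0.10, limma adjusted p = 0.0281) was lost without either D14 library (adjusted p = 0.27 without replicate 2 and 0.0506 without replicate 3) and without D28 replicate 1 (0.0747) or replicate 3 (0.052).

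MNT (chr17:2384073-2401104, minus strand), the antagonist that most cell types express at all stages, was called in no comparison. Its libraries scattered widely, from 35.0 to 57.6 TPM in Untreated U87 and from 41.9 to 97.0 at U87 D28, and from 54.0 to 68.9 in Untreated U251 and from 51.3 to 93.0 at U251 D3. The SE of its log2 fold changes was 0.26 to 0.29 in U87 and 0.17 in U251 against Untreated, so changes of the size seen for MXD4 could have been missed in U87.

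The ratio of MYC to the summed TPM of its 4 antagonists is given as a description, with no test. In U87 it was 0.526, 0.538 and 0.531 in Untreated libraries, 0.433 and 0.453 at D3, and 0.626 and 0.598 at D14. It was 0.425, 0.473 and 0.558 at D28 and 0.361, 0.421 and 0.426 at D28WO. In U251 it was 0.607, 0.703 and 0.615 in Untreated libraries, 0.442, 0.449 and 0.459 at D3, and 0.639, 0.640 and 0.641 at D14. It was 0.549, 0.570 and 0.576 at D28 and 0.382, 0.417 and 0.403 at D28WO. In both lines D3 and D28WO lay below all Untreated libraries, and D14 lay above all of them in U87 and within their range in U251. The sum of the antagonists was 194 to 217 TPM in Untreated U87 and 239.9 to 252 at D28WO, and 212 to 229 and 233 to 267 in U251. In U87 at D28WO the MYC libraries overlapped Untreated as deposited, but the median of all genes stood 0.25 (log2) above Untreated and MYC lay at -0.38 relative to it, so how far each part of the ratio moved depended on the scaling. MAX, for which all of these proteins compete, is not part of the ratio. A scaling of a whole library leaves the ratio as it is.

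**Figure D3:**
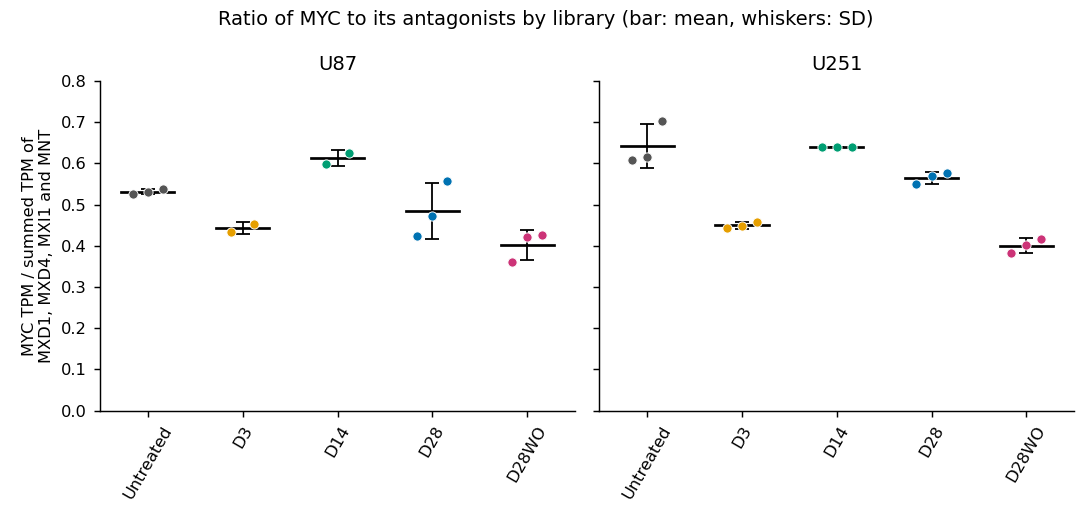
Ratio of MYC TPM to the summed TPM of MXD1, MXD4, MXI1 and MNT (vertical axis, from 0) in each library (points) of U87 (left) and U251 (right), with the mean (bar) and SD (whiskers) of each group. The D28WO libraries lie at 0.361 to 0.426 in U87, where 1 D28 library (0.425) lies among them, and at 0.382 to 0.417 in U251, below all other libraries of that line.

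In U87 all exposed libraries of NCL, NPM1 and FBL lay below Untreated, with calls at D3, D28 and D28WO but not at D14. NOP56 was called lower there at D28WO alone and NOP58 in no comparison. With quantile normalization 1 member was called lower in U87 at D3 and 1 at D28. In U251 the 5 nucleolar genes were called in both directions. In U87 the summed TPM of the 5 was 1446 to 1714 in Untreated libraries, 1221 and 1246 at D3, 1324 and 1358 at D14, 1194 to 1265 at D28 and 1142 to 1184 at D28WO, every exposed library below every Untreated one. In U251 it was 1103 to 1209 in Untreated libraries, 1184 to 1314 at D3, 1186 to 1276 at D14, 1103 to 1181 at D28 and 1101 to 1132 at D28WO, so that all groups overlapped Untreated.

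NPM1 (chr5:171387116-171411810, plus strand) was the most abundant member, and of the falls called in U87 its calls were lost under the fewest alternatives. It was 584, 515 and 626 TPM in Untreated libraries, 419 and 426 at D3, and 494 and 459.9 at D14. It was 436, 408 and 434 TPM at D28 and 410.4, 426 and 392 at D28WO, so all 10 exposed libraries lay below Untreated. Falls were called at D3 (log2 -0.44 ± 0.08, 0.74-fold, limma adjusted p = 0.00388), D28 (-0.43 ± 0.07, adjusted p = 0.00151) and D28WO (-0.48 ± 0.07, adjusted p = 0.000225), and D14 was not (-0.27 ± 0.08, adjusted p = 0.0742). The D28 and D28WO calls held under all alternatives, and the D3 call missed the threshold when only D3 and Untreated were fitted (limma adjusted p = 0.0549). The size of the falls depended on the alternative, the smallest being -0.19 at D3, -0.20 at D28 and -0.17 at D28WO. In U251 the Untreated libraries held 358, 367 and 401 TPM and the D28WO libraries 329, 334 and 347, while D3, D14 and D28 ranged from 357 to 399.8 and overlapped Untreated. The fall at D28WO (-0.15 ± 0.05, limma adjusted p = 0.0331) was lost under 8 of 14 alternatives, among them quantile normalization (-0.04, adjusted p = 0.533) and leaving out Untreated replicate 2 (-0.17, adjusted p = 0.0512), Untreated replicate 3 (-0.11, adjusted p = 0.144), D28WO replicate 1 (-0.14, adjusted p = 0.106) or D28WO replicate 2 (-0.15, adjusted p = 0.0865). NPM1 has 49 pseudogene rows in the tables, which together held 0.781 to 5.18% of its TPM in U87 and 1.91 to 4.67% in U251, and reads could have been split between them.

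NCL (chr2:231453531-231483641, minus strand) fell in U87 as well. It was 304, 267 and 332 TPM in Untreated libraries, 231 and 241 at D3, 249 and 248 at D14, 252, 234 and 235 at D28, and 209, 217 and 213 at D28WO. No exposed library reached the lowest Untreated one. Limma gave -0.35 ± 0.08 at D3 (adjusted p = 0.0152), -0.27 ± 0.08 at D14 (adjusted p = 0.0812), -0.32 ± 0.07 at D28 (adjusted p = 0.00978) and -0.49 ± 0.07 at D28WO (adjusted p = 0.000262). The D28WO call held under all alternatives, with -0.24 as the smallest fall. With quantile normalization the D3 and D28 values were -0.13 (limma adjusted p = 0.208) and -0.11 (adjusted p = 0.19). The D3 call was lost without D3 replicate 2 (-0.32) or replicate 3 (-0.37), each of which left 1 D3 library. In U251 NCL ranged from 212 to 236 TPM in Untreated libraries and from 197 to 238 in the others, with D28 and D28WO below all Untreated libraries, and was called in no comparison.

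FBL (chr19:39834458-39846379, minus strand), the methyltransferase of the box C/D particle, was 374, 344 and 435 TPM in Untreated U87 libraries, 297 and 282 at D3, and 337 and 322 at D14. It was 259, 294 and 322 TPM at D28 and 265, 260.0 and 276 at D28WO, again with all exposed libraries below Untreated. Falls were called at D3 (-0.40 ± 0.10, limma adjusted p = 0.0212), D28 (-0.40 ± 0.09, adjusted p = 0.0099) and D28WO (-0.52 ± 0.09, 0.70-fold, adjusted p = 0.000824). The last held under all alternatives, with -0.25 as the smallest fall. With quantile normalization D3 and D28 came to -0.18 (adjusted p = 0.184) and -0.17 (adjusted p = 0.136). The D3 call was also lost without Untreated replicate 3 (-0.31, adjusted p = 0.0596), D3 replicate 2 (-0.44, adjusted p = 0.0896) or D3 replicate 3 (-0.36, adjusted p = 0.119).

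In U251 FBL was 249, 262 and 284 TPM in Untreated libraries, 231, 185 and 246 at D3, and 213, 199 and 241 at D28, the latter groups below all Untreated libraries. D14 (236 to 252 TPM) and D28WO (243 to 281 TPM) overlapped Untreated. The falls at D3 (-0.27 ± 0.10, limma adjusted p = 0.0441) and D28 (-0.28 ± 0.10, adjusted p = 0.0349) were lost under 8 and 6 of 14 alternatives. Leaving out Untreated replicate 2, Untreated replicate 3, D3 replicate 1 or D3 replicate 2 ended the D3 call (adjusted p = 0.0827, 0.149, 0.0501 and 0.194 by limma), and the value fell to -0.15 without D3 replicate 2. Quantile normalization gave -0.18 (adjusted p = 0.2) at D3 and -0.16 (adjusted p = 0.239) at D28. Leaving out Untreated replicate 2, Untreated replicate 3, D28 replicate 1 or D28 replicate 2 ended the D28 call (adjusted p = 0.0686, 0.125, 0.0857 and 0.138).

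NOP56 (chr20:2652593-2658393, plus strand) and NOP58 (chr2:202265736-202303661, plus strand), the paired scaffold proteins of the same particle, rose in U251. NOP58 was 107, 105 and 103 TPM in Untreated libraries, 193, 153 and 168 at D3, and 161, 163 and 156 at D14. It was 143, 128 and 149.7 TPM at D28 and 134, 122 and 144 at D28WO, and all 12 exposed libraries exceeded all Untreated ones. The log2 fold changes were 0.70 ± 0.08 at D3 (1.62-fold, limma adjusted p = 1.46e-05), 0.61 ± 0.08 at D14 (adjusted p = 0.000181), 0.42 ± 0.08 at D28 (adjusted p = 0.00123) and 0.34 ± 0.08 at D28WO (1.27-fold, adjusted p = 0.0069), and these 4 calls held under all alternatives. In U87 NOP58 overlapped Untreated (118 to 159.5 TPM) in every group, with libraries from 120.0 to 159.8, and was called in no comparison.

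NOP56 in U251 was 175, 183 and 186 TPM in Untreated libraries, 302, 208 and 253 at D3, and 214, 258 and 273 at D14. It was 228, 215 and 223 TPM at D28 and 191, 198 and 170.3 at D28WO, so that D3, D14 and D28 lay above Untreated and D28WO overlapped it. Rises were called at D3 (0.47 ± 0.12, limma adjusted p = 0.00489) and D14 (0.45 ± 0.12, adjusted p = 0.0136), the latter lost without D14 replicate 3 (0.37, adjusted p = 0.0646), and not at D28 (0.29 ± 0.12, adjusted p = 0.0594). In U87 the Untreated libraries spread from 130.1 to 202 TPM, and D28WO was the one group with all of its libraries (108, 126 and 129 TPM) below them, although 1 D28 library (120.0 TPM) lay there too. That fall (-0.42 ± 0.15, limma adjusted p = 0.0376) was lost under 9 of 14 alternatives, including leaving out Untreated replicate 2 (-0.27, adjusted p = 0.147), Untreated replicate 3 (-0.43, adjusted p = 0.0833), D28WO replicate 1 (-0.35, adjusted p = 0.132), D28WO replicate 2 (-0.45, adjusted p = 0.0617) or D28WO replicate 3 (-0.47, adjusted p = 0.0519). At D3 in U251 FBL was thus called lower and its 2 partners higher, with the FBL call lost under 8 of 14 alternatives.

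**Figure D4:**
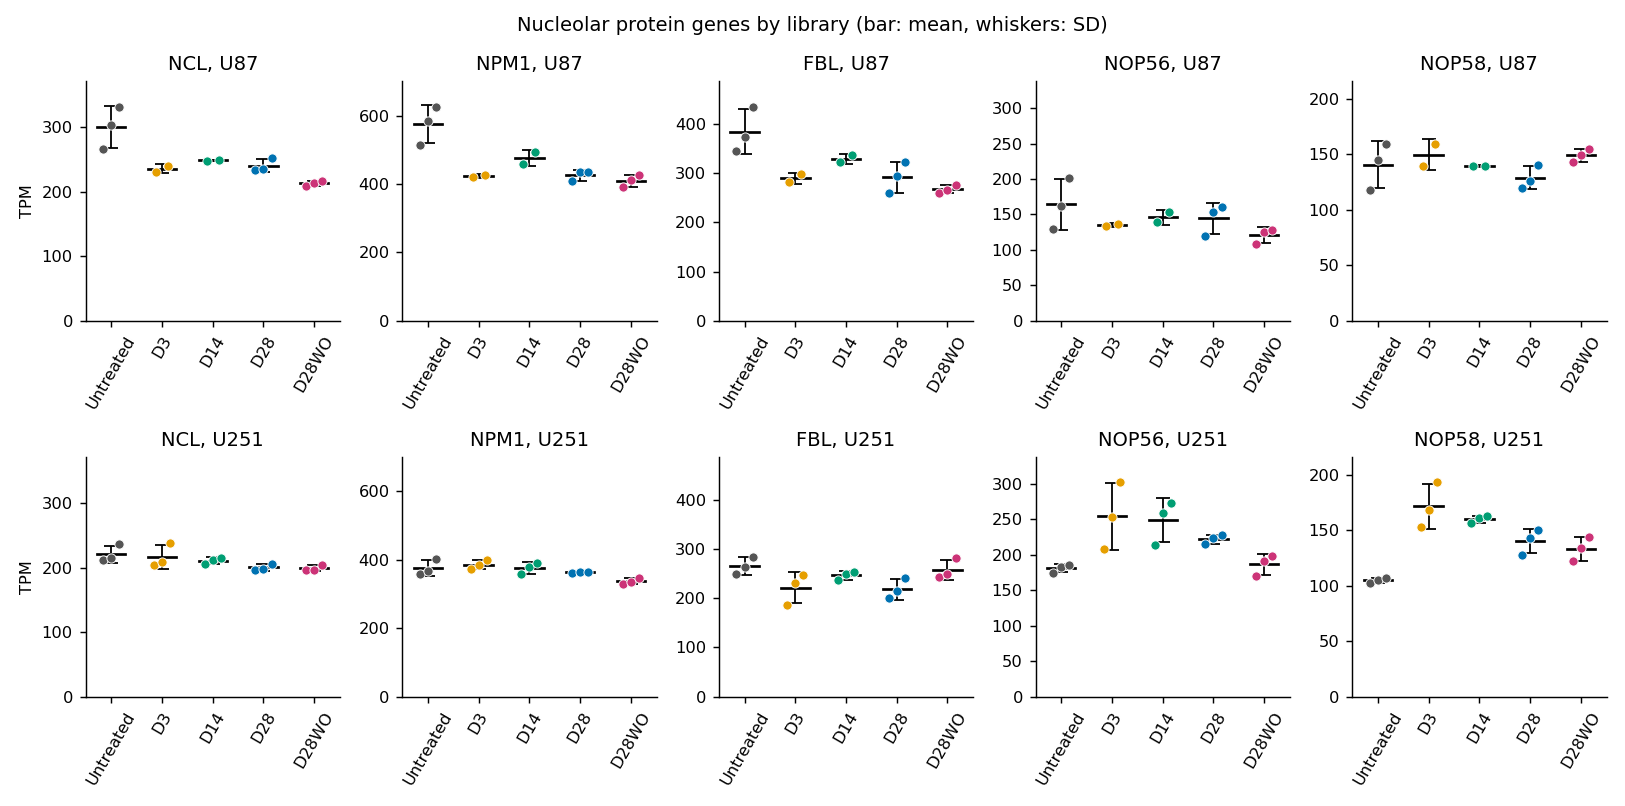
TPM (vertical axes, from 0) of NCL, NPM1, FBL, NOP56 and NOP58 in each library (points) of the 5 groups, U87 above and U251 below, with the mean (bar) and SD (whiskers). In U87 every exposed library of NCL, NPM1 and FBL lies below the Untreated libraries, and in U251 every exposed library of NOP58 (122 to 193 TPM) lies above them (103 to 107 TPM).

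Other genes of the network were read from 7 lists, counted by calls of the same fits, against the shares of all genes called that stand beside the members' counts. Of the 8 further genes of the MYC, MAX and MLX families, 7 were tested in each line. In U87, 2 were higher and 0 lower at D3, 0 were called by limma at D14 (1 at an unadjusted p below 0.05), 3 were higher and 1 lower at D28, and 4 were higher and 2 lower at D28WO. In U251, 3 were higher and 1 lower at D3, 1 was higher at D14, and 2 were higher and 1 lower at both D28 and D28WO. Most of these U251 shares were close to those of all genes. These were the shares higher at D14 (13.8% of all genes) and D28 (25.9%) and lower at D3 (16.0%), D28 (14.7%) and D28WO (13.4%). MAX, the obligate partner, was 61.9 ± 2.26 TPM in Untreated U251 cells and rose to 116 ± 12.7 at D3 (log2 0.89 ± 0.08, limma adjusted p = 1.08e-06), 105 ± 5.95 at D28 (0.75 ± 0.08, adjusted p = 5.64e-06) and 115 ± 7.50 at D28WO (0.88 ± 0.08, adjusted p = 1.93e-06). MXD3, the member of the MXD family expressed during S phase, fell at D28WO in both lines, from 56.9 ± 6.39 to 29.8 ± 2.80 TPM in U87 (-0.91 ± 0.10, limma adjusted p = 2.23e-05) and from 57.7 ± 10.7 to 22.6 ± 2.97 TPM in U251 (-1.31 ± 0.18, adjusted p = 8.5e-05). In U251 it was as low at D3, at 22.7 ± 4.70 TPM (-1.31 ± 0.18, limma adjusted p = 4.96e-05), and was not called at D14 or D28. MLXIPL, the glucose-responsive factor ChREBP of the parallel MLX branch, was 1.86 ± 0.58 TPM in Untreated U87 cells and 32.7 ± 9.10 at D28WO (3.54 ± 0.31, limma adjusted p = 6.11e-06). These calls of MAX, MXD3 and MLXIPL held under all alternatives. The 1 call in U251 at D14 was MAX, at 74.1 ± 4.47 TPM (0.25 ± 0.08, limma adjusted p = 0.0386), and it was lost under 8 of 14 alternatives, among them both other scalings and leaving out any Untreated library or D14 replicate 2 or 3. In U87 the D3 count of 2 was 1 without D3 replicate 2, and the D28 count of 4 was 1 without Untreated replicate 1, Untreated replicate 3 or D28 replicate 1 and 2 without D28 replicate 2. At U87 D28 quantile normalization gave 1 higher and 0 lower and median-ratio size factors 1 and 2.

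The 30 ribosome assembly genes were often higher in U251. In U251, 26, 14, 20 and 11 of the 30 were higher at the 4 times in turn, with 0 lower, and their median log2 fold changes were 0.39, 0.23, 0.29 and 0.16 beside 0.13, 0.10, 0.16 and 0.02 for all genes. With median-ratio size factors the numbers higher were 20, 9, 12 and 10, with 1 lower at D28. The D14 count fell to 8 without Untreated replicate 3 and to 9 without D14 replicate 3. NOP2, a methyltransferase of the large ribosomal subunit RNA, went from 39.6 TPM in Untreated U251 cells to 93.6 at D3 (log2 1.22, limma adjusted p = 1.38e-06), 71.5 at D14 (0.84, adjusted p = 0.000143), 77.6 at D28 (0.95, adjusted p = 1.37e-05) and 59.0 at D28WO (0.57, adjusted p = 0.00171). DDX10, an RNA helicase of small subunit assembly, rose from 55.2 to 111 TPM at D28 (0.99, limma adjusted p = 4.05e-06) and was 65.0 TPM at D28WO (0.22, adjusted p = 0.134).

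In U87, 0 of the 30 were called by limma at D3 or D14 (2 and 5 at an unadjusted p below 0.05), 5 were lower at D28, and 5 were higher and 7 lower at D28WO, with medians of 0.01, 0.02, -0.11 and -0.03 beside 0.20, 0.15, 0.19 and 0.25 for all genes. With median-ratio size factors 2 were lower at D3, 16 lower at D28 and 16 lower with 0 higher at D28WO, so the split at D28WO depended on the scaling. Without Untreated replicate 1 the D28WO count was 4 higher and 3 lower, and the D28 count was 3 without Untreated replicate 2 or 3 and 2 without D28 replicate 2. NOC2L, a nucleolar factor of the large subunit, fell from 159 to 113 TPM at D28WO (-0.49, limma adjusted p = 5.1e-05), a call kept under all alternatives. DDX10 rose there from 47.5 ± 1.58 to 72.7 ± 1.56 TPM (0.60 ± 0.14, limma adjusted p = 0.0044), a call lost with median-ratio size factors.

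**Figure D5:**
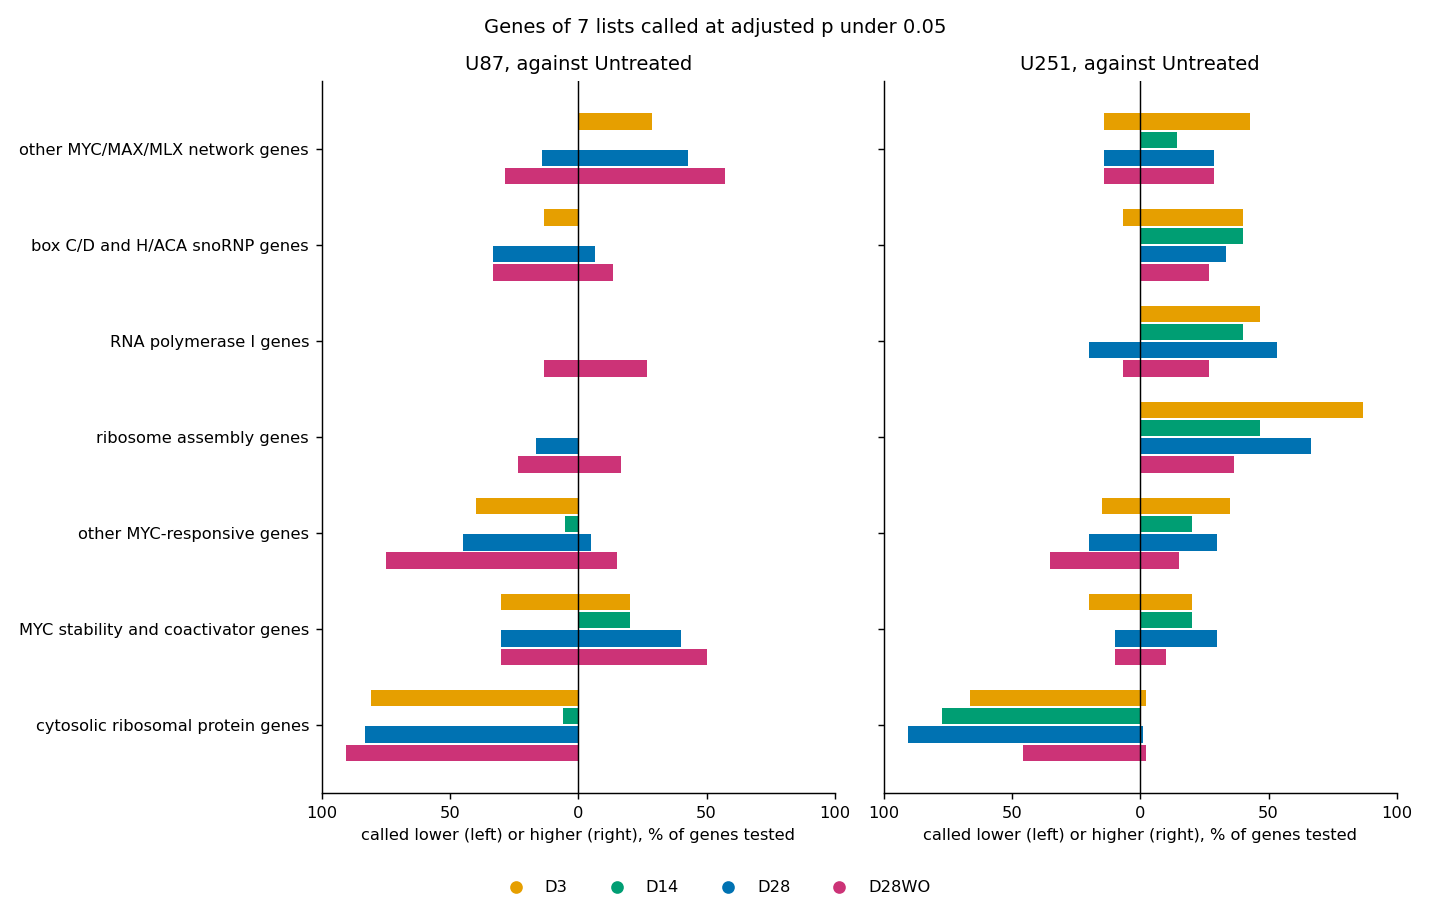
Share of the tested genes of 7 lists (horizontal axis, %) called lower (bars to the left) or higher (bars to the right) than Untreated in U87 and U251, coloured by group. The ribosome assembly genes reach 26 of 30 higher at D3 in U251 and 0 of 30 at D3 in U87, and the cytosolic ribosomal protein genes lie almost wholly to the left in both lines.

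The cytosolic ribosomal protein genes, whose messages make up a further part of ribosome production, were lower in both lines. In U87, 67 of 83 tested were lower at D3 and 5 at D14, then 69 at D28 and 75 after withdrawal, with 0 higher. In U251, 55 of 83 were lower at D3 (2 higher), 64 at D14 (0 higher), 75 at D28 (1 higher) and 38 at D28WO (2 higher). Quantile normalization left 10, 1, 10 and 35 lower in U87 and 34, 22, 54 and 30 in U251. The U87 D3 count was 41 without Untreated replicate 3, 21 without D3 replicate 2 and 12 without D3 replicate 3, and the U87 D14 count was 3 without Untreated replicate 1, 17 without Untreated replicate 2, 1 without Untreated replicate 3 and 0 without either D14 library.

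Of the 15 genes of RNA polymerase I and its factors, 7 were higher at D3, 6 at D14, 8 at D28 (3 lower) and 4 at D28WO (1 lower) in U251, and 0 were called by limma in U87 at D3, D14 or D28 (3 at each time at an unadjusted p below 0.05), while at D28WO 4 were higher and 2 lower. The U87 D28WO shares were close to those of all genes (28.6% higher and 13.4% lower), and the split there was 3 higher and 5 lower with quantile normalization and 3 and 3 with median-ratio size factors. At U87 D28 these scalings gave 1 higher and 3 lower, and 0 and 3. With median-ratio size factors the U251 D28 split was 4 higher and 4 lower. That U251 D28 count was 7 in all without Untreated replicate 2, Untreated replicate 3 or D28 replicate 2. The U251 D14 count was 2 without Untreated replicate 3 or D14 replicate 3 and 3 without D14 replicate 2, and the D28WO count was 3 in all without Untreated replicate 2 or 3 or D28WO replicate 1 or 3. RRN3, the initiation factor that links polymerase I to its promoter, rose in U251 from 43.3 to 80.8 TPM at D3 (log2 0.88, limma adjusted p = 1.12e-05), 65.6 at D28 (0.59, adjusted p = 0.000399) and 70.4 at D28WO (0.69, adjusted p = 0.000159), and in U87 from 47.0 to 67.4 TPM at D28WO (0.52, adjusted p = 0.00302). TAF1A, a subunit of the promoter selectivity factor of polymerase I, rose in U251 from 20.8 to 46.9 TPM at D3 (limma adjusted p = 1.25e-05) and 40.3 at D28 (log2 0.92, adjusted p = 7.78e-05). Of the 15 further box C/D and H/ACA genes, 6, 6, 5 and 4 were higher at D3, D14, D28 and D28WO in U251 (1 lower at D3), while in U87 2 were lower at D3, 0 were called by limma at D14 (0 at an unadjusted p below 0.05), 1 was higher and 5 lower at D28, and 2 were higher and 5 lower at D28WO. The U251 D14 count was 3 without Untreated replicate 2 and the D28 count 3 without Untreated replicate 2 or D28 replicate 2, and the U87 D3 count was 0 without Untreated replicate 3 or D3 replicate 3 and 1 without D3 replicate 2, while the U87 D28 count of 6 was 3 without Untreated replicate 3 and 2 without D28 replicate 2. Either scaling left 5, 3 and 3 higher at D3, D14 and D28 in U251, and median-ratio size factors left 2 at D28WO. In U87 the D28 split was 0 higher and 2 lower with quantile normalization and 0 and 8 with median-ratio size factors, and the D28WO split 1 and 3, and 2 and 9. GAR1, a core protein of the H/ACA particles, rose from 36.2 TPM in Untreated U251 cells to 65.8 at D3 (0.85, limma adjusted p = 5.03e-06) and 63.5 at D28 (0.79, adjusted p = 8.97e-06).

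Of the 20 other MYC-responsive genes, 8 were lower at D3, 9 at D28 (1 higher) and 15 at D28WO (3 higher) in U87, and 1 was lower at D14. In U251, 7 were higher and 3 lower at D3, 4 higher at D14, 6 higher and 4 lower at D28, and 3 higher and 7 lower at D28WO, and the D28 split turned to 3 higher and 8 lower with median-ratio size factors and the D3 split to 5 and 5. Several of these U251 shares were close to those of all genes, among them the share lower at D3 (16.0% of all genes) and the shares higher at D28 (25.9%) and D28WO (14.3%). In U87 quantile normalization left 3 lower at D3 and again at D28, with 13 lower and 1 higher after withdrawal, and median-ratio size factors gave 10, 13 and 15 lower, with 0 higher at D28WO. The U87 D3 count was 2 without D3 replicate 2 and 4 without D3 replicate 3, the U87 D14 count was 0 without Untreated replicate 3 or either D14 library, the U87 D28 count was 4 in all without Untreated replicate 3, and the U251 D28 count was 6 without D28 replicate 2. LDHA, the lactate dehydrogenase of glycolysis, fell in U87 at D28WO from 1375 ± 177 to 581 ± 76.9 TPM (log2 -1.24 ± 0.13, limma adjusted p = 1.9e-05). CDC25A, the phosphatase that opens S phase, fell there from 38.1 ± 3.28 to 14.3 ± 4.16 TPM (-1.39 ± 0.20, limma adjusted p = 0.000198). In U251, E2F1, the transcription factor of S phase entry, was 52.4 ± 5.27 TPM in Untreated cells, 69.4 ± 4.19 at D14 (0.40 ± 0.09, limma adjusted p = 0.0075) and 23.8 ± 1.97 at D28WO (-1.11 ± 0.09, adjusted p = 8.64e-07). CCND2, a D-type cyclin of G1, was near 0 in Untreated cells and rose at D28 in both lines, from 0.257 ± 0.0545 to 2.75 ± 0.686 TPM in U87 (1.56 ± 0.23, limma adjusted p = 0.000707) and from 0.0234 ± 0.0406 to 3.50 ± 0.952 TPM in U251 (2.12 ± 0.23, adjusted p = 6.3e-06). It also rose in U251 at D3, to 1.83 ± 0.574 TPM (1.45 ± 0.23, limma adjusted p = 0.000196). These calls held under all alternatives, whereas the U87 call of CCND2 at D28WO (0.63 ± 0.23, limma adjusted p = 0.0443) was lost under 11 of 14.

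Among 10 genes that act on MYC protein stability or as its coactivators, 2 were higher and 3 lower at D3, 2 higher at D14, 4 higher and 3 lower at D28, and 5 higher and 3 lower at D28WO in U87, and 2 and 2, 2 and 0, 3 and 1, and 1 and 1 in U251. The U251 shares at D3 and D28WO were close to those of all genes, 24.9% higher and 16.0% lower at D3 and 14.3% and 13.4% at D28WO. The U87 D3 count of 5 was 3 without Untreated replicate 1, 2 without Untreated replicate 3 and 1 without D3 replicate 2, the D14 count was 1 without Untreated replicate 1 and 0 without Untreated replicate 3 or either D14 library, and the U87 D28 count of 7 to 4 without Untreated replicate 3 or D28 replicate 1. With quantile normalization the U87 splits were 2 higher and 2 lower at D28 and 3 and 3 at D28WO, and with median-ratio size factors 2 and 3, and 3 and 4. USP36, a nucleolar deubiquitinase that stabilizes MYC, rose in both lines. In U87 it went from 41.5 ± 3.61 TPM in Untreated cells to 75.1 ± 1.53 at D3 (log2 0.84 ± 0.10, limma adjusted p = 0.000248), 57.5 ± 3.69 at D14 (0.46 ± 0.10, adjusted p = 0.0286), 61.1 ± 6.11 at D28 (0.54 ± 0.09, adjusted p = 0.00164) and 105 ± 4.45 at D28WO (1.32 ± 0.09, adjusted p = 9.94e-07). In U251 it went from 81.8 ± 13.7 to 176 ± 24.7 TPM at D3 (1.10 ± 0.13, limma adjusted p = 1.64e-05), 133 ± 15.7 at D14 (0.70 ± 0.13, adjusted p = 0.00203), 159 ± 16.3 at D28 (0.96 ± 0.13, adjusted p = 5.81e-05) and 123 ± 5.91 at D28WO (0.60 ± 0.13, adjusted p = 0.00382). SKP2, a subunit of a ubiquitin ligase that binds MYC and drives entry into S phase, fell at D28WO from 61.6 ± 6.55 to 22.7 ± 1.20 TPM in U87 (-1.40 ± 0.11, limma adjusted p = 3.44e-06) and from 47.8 ± 2.48 to 34.9 ± 3.63 TPM in U251 (-0.45 ± 0.10, adjusted p = 0.00412). It was already lower in U87 at D3 (-0.60, limma adjusted p = 0.00883) and D28 (-0.40, adjusted p = 0.0272). In U251 the falls were -0.50 at D3 (limma adjusted p = 0.00128) and -0.67 at D28 (29.8 ± 2.70 TPM, adjusted p = 0.000122). The U87 call of USP36 at D14 was lost under 6 of 13 alternatives, and those of SKP2 under 1 of 13 at D3 and 4 of 14 at D28. The other single-gene calls of USP36 and SKP2 held under all alternatives.

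Over the libraries of a line, the genes whose log2(TPM + 1) was most like that of MYC were ANK1 (Pearson r = 0.84 over 13 U87 libraries and 0.89 over 15 U251 libraries), DNAH5 (0.82 and 0.84), CYP46A1 (0.79 and 0.90), ARSL (0.83 and 0.79) and PC (0.79 and 0.80), ranked by the lower of the 2 values among 20473 genes tested in both lines. Of the members, MXD4 was the most like MYC (0.72 and 0.63), while MXD1 (-0.53 and -0.37), MXI1 (-0.31 and -0.36) and NOP58 (-0.68 and -0.47) ran opposite to it in both lines. NPM1 and NCL had values of 0.04 and 0.14 in U87 and 0.51 and 0.58 in U251. These correlations share the groups, the libraries and their scaling, and are given as descriptions.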

How the data were processed

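RNA was sequenced from U87 and U251 cells in 5 groups of each line. Per the study's methods, the authors trimmed reads with Trim Galore, checked them with FastQC, aligned them to GRCh38 with STAR and counted them with featureCounts, with edgeR and limma for their own tests. The authors deposited 1 table of TPM for each line; how TPM was computed is not given in the sources used here, and a supplementary sheet calls the matrices CPM. The values of each library sum to the same total, so depth is unknown, and no interval that needs counts is given. The U87 table has 2 columns under the same name, which were used in no step. Gene coordinates are from GENCODE release 44, matched by symbol.

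Values were analysed as log2(TPM + 1) with limma 3.58.1 in R 4.3.3. For each line, genes whose mean TPM over the libraries reached 0.5 entered 1 fit over its 5 groups, with moderated variances and a mean-variance trend, and p-values were adjusted by Benjamini-Hochberg over all genes tested. A gene was called at an adjusted p below 0.05. Fold changes are on the log2(TPM + 1) scale and understate those of low genes. The lines were normalized separately and were not tested against each other. The script was tested on simulated data. Alternatives were a pseudocount of 0.1, no filter or a minimum mean of 1, scaling by quantiles or by median-ratio factors, a replicate block, array weights, fits of only 2 groups, a limit on fold change, and leaving out each library. The alternatives for the gene lists and their named genes were chosen after seeing the data. The members and lists were chosen with earlier results of these data known. The genes to name were the members, the 5 genes most like MYC, and at most 3 called genes per list and line, those with the largest absolute log2 fold change at D28 or D28WO against Untreated, of which the text names some.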

Additional observations from a re-analysis of the deposited data

Results flagged for a closer look

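A few members moved one way in all libraries of one line and the other way in all libraries of the other, and the difference between the lines was not tested, since the tables were normalized separately. MYC at D14 against Untreated had a log2 fold change of 0.21 in U87 and -0.23 in U251. MXD1 at D28WO against D28 was 1.21 in U87 and -0.57 in U251. MXD4 at D3 against Untreated was 0.087 in U87 and -0.58 in U251, and MXI1 at D28 against Untreated was 0.29 in U87 and -0.17 in U251. The MXD1 values passed limma's test in both lines, whereas the values of MYC and MXD4 in U87 and of MXI1 in U251 did not. No group held more than 3 libraries, so single libraries were not tested as outliers.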

How the results depend on the processing

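Of the counts of called members, 62 of 73 alternatives in U87 and 69 of 75 in U251 stayed within 1.5 times the reported count. Quantile normalization gave 1 called member at D3 and 1 at D28 in U87. Fits of only the 2 compared groups gave 0 at D3 and 1 at D28 in U87. With the fold limit, the counts against Untreated in U87 were 0 at D3, 0 at D28 and 1 at D28WO, with 1 for D28WO against D28, and in U251 they were 1 at D3 and 0 at D14, D28 and D28WO, with 0 for D28WO against D28. Without single libraries the U87 counts ranged from 1 to 4 at D3, 0 to 2 at D14, 3 to 5 at D28, 6 to 7 at D28WO and 2 to 3 for D28WO against D28, and the U251 counts from 6 to 7, 2 to 4, 4 to 5, 4 to 5 and 2 to 3. The log2 fold change of MXD4 at D3 in U87 was -0.035 after quantile normalization and -0.11 on median-ratio size factors against 0.087 as reported, and that of MYC at D28 in U87 was -0.026 on median-ratio size factors against 0.17. That of MYC at D3 in U87 ranged from -0.069 to 0.038 without single libraries. Of the called values, MYC, and those set side by side between lines, 267 of 315 alternatives in U87 and 389 of 420 in U251 kept direction and side of the threshold. Among the other uncalled values, 6 of 615 alternatives in U87 and 15 of 560 in U251 became called, of which NPM1 at D28 in U251 also turned sign with quantile normalization (0.18, limma adjusted p = 0.00323). The causes were not tested.

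Libraries with the same replicate number did not deviate together (r from -0.06 to 0.05 over 23 pairs in U87 and from -0.04 to 0.05 over 30 pairs in U251), so the numbers were not taken as pairs. With the replicate block the called members were 4, 0, 4 and 7 against Untreated and 3 for D28WO against D28 in U87, and 7, 4, 5 and 6, and 2, in U251. The block ended 1 member call, MXI1 from D14 to D28 in U87 (0.38, limma adjusted p = 0.0618). Groups of 2 or 3 libraries and the lack of counts limit all of these values.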
